A study of Mus musculus with 8 samples.

Results

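The AP-1 and immediate early genes described here are 10 of the 32285 genes counted: Fos, Fosb, Fosl2, Jun, Junb, Jund, Atf3, Ier2, Egr1 and Ppp1r15a. They were chosen by their measured levels in stem cells of these same files, where several stood higher in neonatal bone marrow than in spleen, so that difference is given as a description with no test. The cells came from mice and were sorted as Epcr+, lineage-negative, Sca-1+ and Kit+, a gate for haematopoietic stem cells, after enrichment of Kit+ cells with beads. Wild-type pups at postnatal day 2 (P2), 7 of them merged and called the pool here, gave 1 library from each of 3 organs, the bone marrow, liver and spleen. Wild-type mice at about day 19 of gestation (E19) gave 1 library, whose title names bone marrow and whose tissue label names fetal liver. The other 2 libraries, tube 1 and tube 2, held bone marrow and spleen cells of 2 Tppp3CreER LSLTdTomato pups taken at P2 after tamoxifen on the day of birth. In such mice tamoxifen lets Cre switch on the tdTomato reporter in cells with an active Tppp3 gene, and their descendants keep it. Positive cells of 1 pup were run together with negative cells of the other in each tube, and antibody hashtags marked pup and tissue. tdTomato itself is not among the genes counted, so positive and negative rest on the sort. Bones were crushed, and the protocol names chopping for spleen and fetal liver, so tissue and way of release cannot be told apart where bone marrow is compared with spleen.

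AP-1 is a dimer built from Jun and Fos family proteins, which pair through leucine zippers and bind a short DNA site. Jun proteins can pair with each other, while Fos proteins need a Jun partner. Most of these genes are immediate early genes: kinase cascades switch on their transcription within minutes without new protein synthesis, and their transcripts are short-lived. Blood stem cells transcribe them at levels that move with signalling, stress and handling of the cells.

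Counts were summed over cells with at least 1000 genes, at least 2000 UMIs (unique molecular identifiers, which count captured transcripts) and at most 10% mitochondrial UMIs. The 6 libraries held 56010320 to 87254828 UMIs and kept 2473 to 10725 cells each, with a median of 6523 to 8275 UMIs in the pool and E19 libraries and 20120 and 20492 in the tubes. A cell was put in the stem gate when at least 50% of 12 stem cell markers were seen in it and that share led every other class by 15 percentage points. This gave 1075 stem-gated cells in pool bone marrow, 155 in liver, 1089 in spleen and 6860 at E19. Among hashtagged tdTomato-negative cells it gave 85 in bone marrow and 826 in spleen of pup 1, and 1266 and 638 in pup 2. In these 8 groups of stem-gated cells the 12 stem markers summed to between 3019 and 4680 CPM, which are UMIs per 1000000 UMIs of the summed cells. Transcripts of the sort markers were present in every group, with Procr, which encodes Epcr, between 30.6 and 56.3 CPM. The 6 macrophage markers summed to at most 5.61 CPM and the 6 stromal markers to at most 17.6 CPM. The 4 hepatocyte markers summed to at most 20.6 CPM, in pool liver. The 5 endothelial markers were higher, at 112 to 181 CPM, and whether stem cells or other cells gave these was not tested. The 11 neutrophil markers summed to 67.0 and 77.0 CPM in bone marrow and spleen of pup 1 and to between 6.64 and 29.4 CPM in the other 6 groups, and their part in the levels of pup 1 was not tested. Pairs of libraries shared between 0 and 25 cell barcodes.

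The promoters of 4 members are printed because these genes had the 4 widest fitted differences between bone marrow and spleen in stem cells; the promoter table holds 8 of the 10 members. Each run is the 250 bases before the annotated start in RefSeq (GRCm38.p6), read 5′ to 3′ on the gene's strand, with matches to the cAMP response element TGACGTCA, its variant TGACATCA or its core TGACG in capitals. The window of Fos lies at chr12:85473640-85473889 on the plus strand, Fosb at chr7:19310046-19310295, Jun at chr4:95052223-95052472 and Ppp1r15a at chr7:45526269-45526518, the last 3 on the minus strand.
Fos: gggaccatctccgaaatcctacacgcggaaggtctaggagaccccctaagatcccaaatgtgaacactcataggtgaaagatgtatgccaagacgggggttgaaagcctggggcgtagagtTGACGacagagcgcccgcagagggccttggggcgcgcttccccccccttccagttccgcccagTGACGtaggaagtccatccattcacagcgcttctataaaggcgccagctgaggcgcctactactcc
Fosb: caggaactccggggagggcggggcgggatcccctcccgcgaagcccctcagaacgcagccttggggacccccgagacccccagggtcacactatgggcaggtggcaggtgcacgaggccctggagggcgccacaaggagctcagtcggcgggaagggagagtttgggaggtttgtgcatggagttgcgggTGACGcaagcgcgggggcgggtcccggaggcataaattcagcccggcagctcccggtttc
Jun: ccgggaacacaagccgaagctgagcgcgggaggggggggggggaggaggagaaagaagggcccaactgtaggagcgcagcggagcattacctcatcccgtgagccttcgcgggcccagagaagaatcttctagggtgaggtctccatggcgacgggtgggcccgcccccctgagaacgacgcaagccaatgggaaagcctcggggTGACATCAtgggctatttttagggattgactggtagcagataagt
Ppp1r15a: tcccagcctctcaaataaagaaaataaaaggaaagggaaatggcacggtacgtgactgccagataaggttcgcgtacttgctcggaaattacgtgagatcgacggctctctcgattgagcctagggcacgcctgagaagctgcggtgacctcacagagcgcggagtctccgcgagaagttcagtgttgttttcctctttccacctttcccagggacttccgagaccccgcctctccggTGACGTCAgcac
Both strands were searched. The core began 129 and 66 bases before the start in Fos and 60 bases before it in Fosb. The variant began 45 bases before the start in Jun, and the full element, which holds the core on both strands, 12 bases before it in Ppp1r15a. Of 32851 mouse promoters of the same length, 17.8% held the core, 2.93% the variant and 1.55% the full element. The AP-1 site TGANTCA, found in 6.75% of promoters, was in none of these 4 windows.

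In stem-gated cells of P2 mice, Fosb and Fos had the largest fitted differences between bone marrow and spleen among the 9 members tested. Both, and Jun, Junb, Jund, Fosl2 and Ppp1r15a, were higher in bone marrow in all 3 sources, and Ier2 and Egr1 in 2 of the 3. In pup 1 the ratio of Fosl2, 2.16, was above that of Fos, 1.98. These are the values that chose the members. They were fitted with edgeR's quasi-likelihood model with source as a term, which called 9 of 13434 genes at an adjusted p under 0.05, 8 of them higher in bone marrow. Genes called higher were 0.0596% of all and genes called lower 0.00744%. Of the 9 members that passed the filter on low counts 5 were among those higher, a count that the choice of members fixes.

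**Figure D1:**
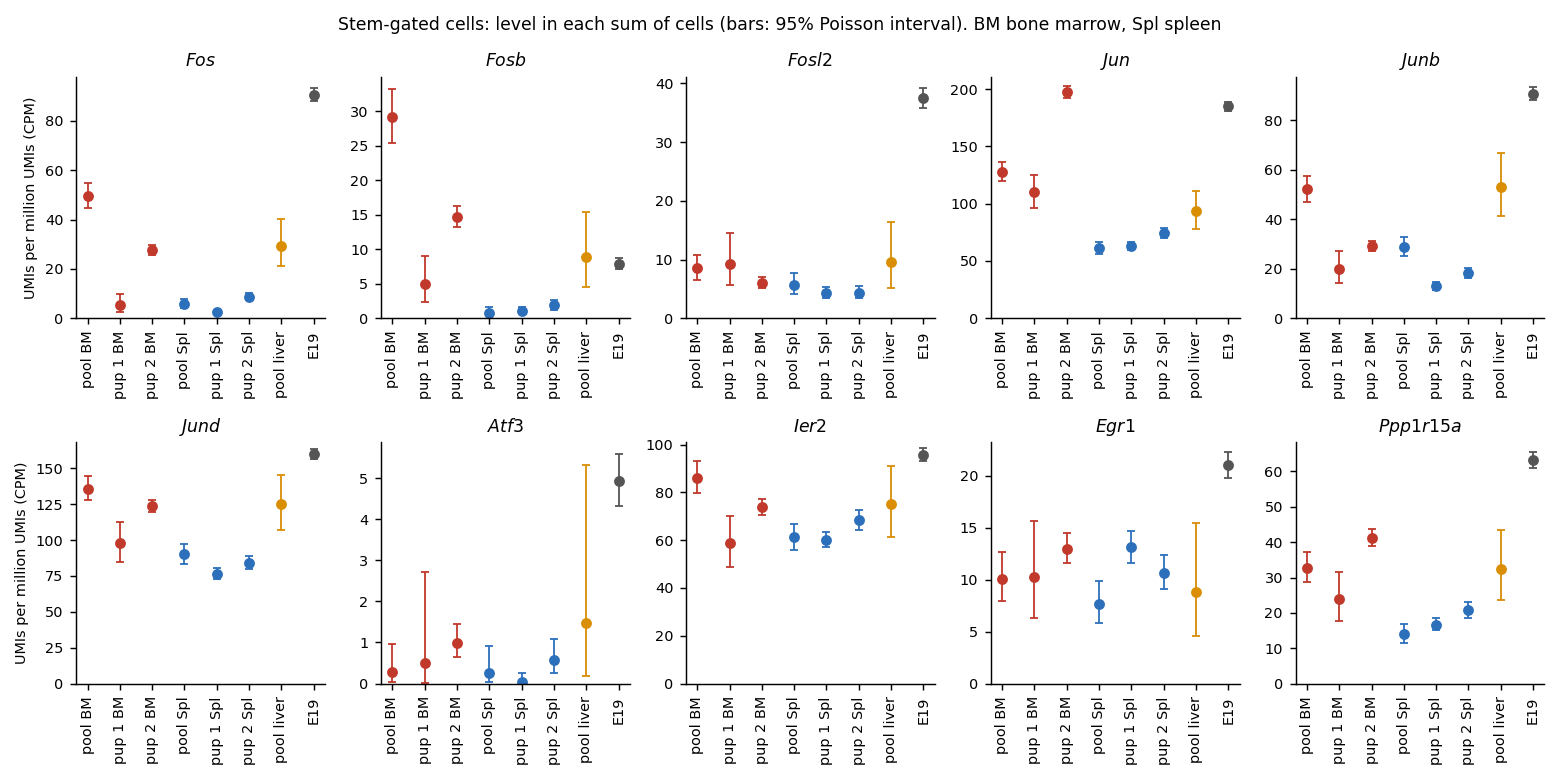
Level of each member in stem-gated cells, in CPM, for the 3 bone marrow groups (red), the 3 spleen groups (blue), pool liver (orange) and E19 (grey). Points are the summed cells and bars the 95% Poisson interval, which covers counting error only. Fosb, Fosl2, Jun, Jund and Ppp1r15a lie higher in every bone marrow group than in every spleen group. This is the contrast that chose the members, and the share of all genes that do so was not counted. Fosl2 clears by little, at 5.98 CPM in pup 2 bone marrow against 5.74 CPM in pool spleen, with overlapping intervals.

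Fos, the founding partner of Jun in AP-1, was at 49.5 CPM in bone marrow and 5.74 CPM in spleen of the pool. The bone marrow and spleen levels were 5.38 and 2.71 CPM in pup 1 and 27.7 and 8.69 CPM in pup 2. Bone marrow was higher within each source, and pup 1 bone marrow, with 11 Fos UMIs in 85 cells, lay under the spleen levels of the other sources. In pup 1 alone the 95% interval of the ratio, 0.94 to 3.81, reached 1. The fitted log2 difference was 2.03 ± 0.24 (SE, 3 sources). Here and below the SE is that of edgeR's model, which shares the spread over all genes. The log2 ratios of Fos were 3.09, 1.04 and 1.67 in the pool, pup 1 and pup 2, further apart than this SE conveys. Fosb, a second Fos family protein, was at 29.2, 4.89 and 14.7 CPM in bone marrow of the pool, pup 1 and pup 2, and at 0.766, 1.09 and 1.85 CPM in spleen. The bone marrow groups did not overlap the spleen groups, and the log2 difference was 3.34 ± 0.33 (SE, 3 sources). In the pool, pup 1 and pup 2 the log2 ratios of Fosb were 5.14, 2.21 and 2.97. Fosl2, another Fos family gene, was at 5.98 to 9.30 CPM in bone marrow and 4.30 to 5.74 CPM in spleen, with a log2 difference of 0.58 ± 0.20 (SE, 3 sources).

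Jun, a member whose protein can pair with itself, was at 128, 110 and 198 CPM in bone marrow of the pool, pup 1 and pup 2. In spleen the 3 sources lay at 61.1, 63.3 and 74.2 CPM, a narrow range under all bone marrow values, and the log2 difference was 1.06 ± 0.11 (SE, 3 sources). Junb was at 52.2, 20.1 and 29.0 CPM in bone marrow and 29.0, 13.02 and 18.2 CPM in spleen. Here the sources overlapped while the order within each source was the same, with a log2 difference of 0.67 ± 0.10 (SE, 3 sources). Jund, which is known for steadier transcription than the other Jun genes, was at 136, 97.9 and 124 CPM in bone marrow and 90.1, 76.6 and 84.3 CPM in spleen. Its log2 difference was 0.45 ± 0.08 (SE, 3 sources).

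Of the members that are not AP-1 subunits, Ppp1r15a stood higher in bone marrow in all 3 sources. It encodes a subunit that brings a phosphatase to the translation factor eIF2 alpha and so reverses a stress-induced block of translation. Its levels were 32.8, 24.0 and 41.2 CPM in bone marrow and 14.0, 16.7 and 20.8 CPM in spleen, with a log2 difference of 0.90 ± 0.12 (SE, 3 sources). Ier2, an immediate early gene for a nuclear protein, had a log2 difference of 0.15 ± 0.10 (SE, 3 sources), and pup 1 was at 58.7 CPM in bone marrow and 60.2 CPM in spleen. Egr1, a zinc finger factor, had a difference of 0.12 ± 0.16 (SE, 3 sources) and was lower in bone marrow of pup 1, at 10.3 against 13.1 CPM. Atf3, a stress-induced partner of Jun, reached at most 0.984 CPM in any of these 6 groups and did not pass the filter.

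Heat shock genes, which cell stress can induce, did not have 1 order across sources. Their 13 listed genes summed to 7753 CPM in bone marrow against 6796 CPM in spleen in the pool, 5945 against 6727 CPM in pup 1 and 6739 against 7714 CPM in pup 2. In the fit over all genes, 2 of 10 tested lay above 0 with a median log2 difference of -0.12, against -0.01 over all genes. The median mitochondrial share was 2.39% in bone marrow and 2.48% in spleen of the pool, and between 1.61% and 1.68% in the pups. The part of RNA quality in the members' levels was not tested beyond these values.

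Outside the stem gate, Jun stood higher in bone marrow in 3 of 3 sources, and Fos in 2 of 3. This comparison did not choose the members. With edgeR's quasi-likelihood test and Benjamini-Hochberg adjustment over 11721 genes, 0 of the 9 members tested were called, where 0% of all genes were called higher and 0.00853%, 1 gene, lower. At an unadjusted p under 0.05 there were 5 members, all higher in bone marrow (Fos, Fosb, Fosl2, Jun and Junb), and 641 of the 11721 genes. DESeq2 called 1, Jun (adjusted p = 0.000517), where 26 of 11721 genes were called higher. For Jun the log2 difference was 1.14 ± 0.17 (SE, 3 sources; edgeR adjusted p = 0.144), with 67.3, 89.7 and 120 CPM in bone marrow and 23.5, 42.2 and 72.6 CPM in spleen of the pool, pup 1 and pup 2. Bone marrow was 1.65 to 2.86 times as high as spleen in the 3 sources, against 1.74 to 2.66 times in the stem gate. These sums mix classes in unlike shares, with 706 erythroid cells among 5475 in pool bone marrow and 2095 among 7954 in pool spleen, and the part of that mix was not tested. In pup 2 most cells outside the gate were ungated, 112 of 124 in bone marrow and 54 of 57 in spleen. Whether these were stem cells that fell short of the gate was not tested, so pup 2 is no clean source of other cells.

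Fos outside the gate was at 18.7 CPM in bone marrow and 3.70 CPM in spleen of the pool, and at 209 and 29.0 CPM in pup 1. In pup 2 the order was the opposite, at 24.5 and 41.7 CPM. There, 57 of the 62 Fos UMIs of the 57 spleen cells came from 2 cells, and without the 2 highest cells of each tissue the levels were 15.9 CPM in bone marrow and 3.50 CPM in spleen. The log2 difference was 1.74 ± 0.62 (SE, 3 sources; edgeR adjusted p = 0.801). Without pup 2 it was 2.56 (edgeR adjusted p = 0.0266), and without pup 1 it was 1.14 (edgeR adjusted p = 0.0469), so leaving out either pup brought Fos under the threshold. Without pup 1, Fosb at 2.18 (adjusted p = 0.000214) and Jun at 1.17 (adjusted p = 1.71e-06) were called by edgeR as well, and without the pool 0 of 9 were, with 3 at an unadjusted p under 0.05. Over all genes, 204 of 15097 were called higher without pup 1, 3 of 15428 without pup 2 and 8 of 11065 without the pool. With no term for source, 0 of 9 members were called by edgeR and 1 had an unadjusted p under 0.05. In an alternative chosen after the data were seen, with gated classes alone, which leaves the pool and pup 1, 2 of 10 members were called where 0.0641% of genes were called higher. These were Fos (log2 difference 2.59 ± 0.23, SE, adjusted p = 0.000905) and Jun (1.35 ± 0.25, SE, adjusted p = 0.0488), both from edgeR. With no term for source, 0 of 10 were called there by edgeR, and 0 had an unadjusted p under 0.05. Leaving out 1 of the 4 sums also needs that term dropped and leaves 1 tissue with a lone sum. Without pool bone marrow, pool spleen or pup 1 bone marrow 0 of 10 members were then called (edgeR, with 2, 0 and 0 at an unadjusted p under 0.05), and without pup 1 spleen Fos alone was. Ppp1r15a, which stood higher in marrow in the stem gate, was at 16.2 and 15.9 CPM in bone marrow and spleen of the pool, and its log2 difference was -0.22 ± 0.21 (SE, 3 sources; edgeR adjusted p = 0.996). Jund had 0.11 ± 0.14 and Egr1 -0.14 ± 0.41 (SE, 3 sources; both edgeR adjusted p = 0.996). Fosb had 1.90 ± 0.52 (edgeR adjusted p = 0.550), Fosl2 1.27 ± 0.40 (edgeR adjusted p = 0.667) and Junb 0.73 ± 0.31 (edgeR adjusted p = 0.914; SE, 3 sources). Fosb, Fosl2 and Junb each stood higher in bone marrow in 3 of 3 sources outside the gate. Whether the difference in stem-gated cells departs from that outside the gate was not tested.

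**Figure D2:**
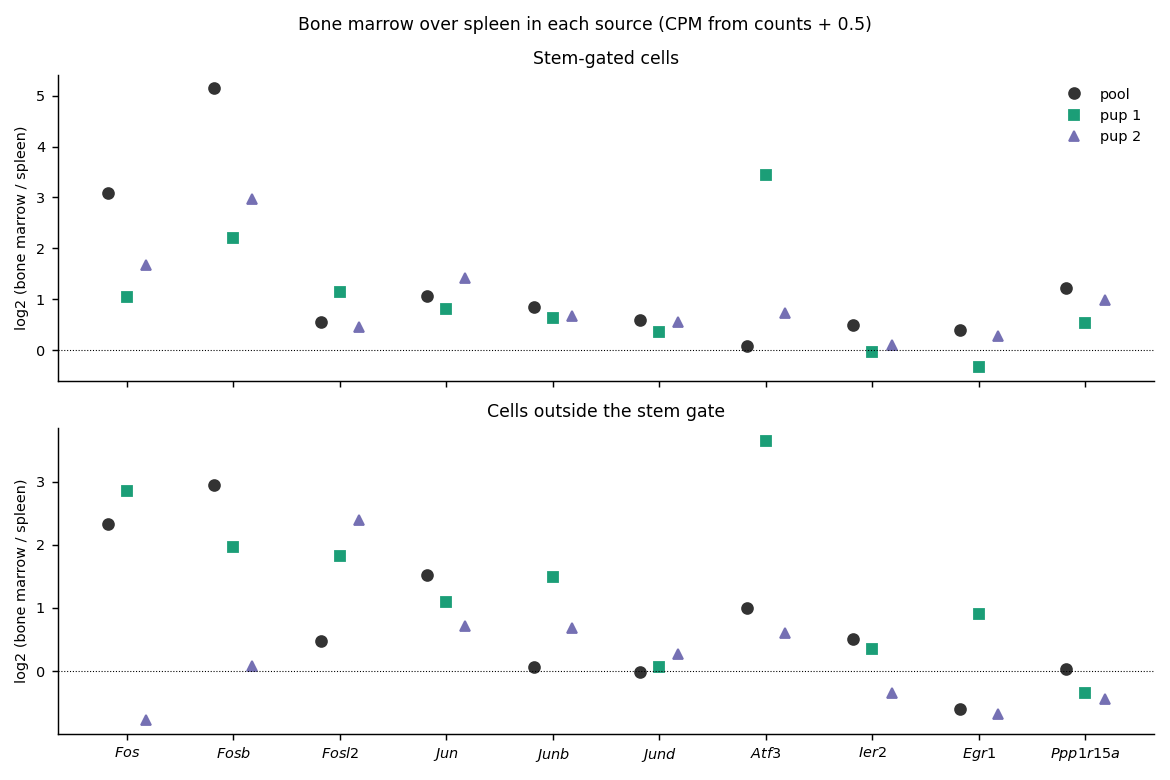
Log2 ratio of bone marrow to spleen CPM for each member in the pool, pup 1 and pup 2, with 0.5 added to each count. In the upper panel all 3 sources lie above 0 for 8 members; in the lower panel, outside the stem gate, Fos of pup 2 lies under 0 and Ppp1r15a is near or under 0. Atf3 points rest on few UMIs.

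Within the pool the cells could be split into 7 marker-gated classes and an ungated remainder, each with at least 50 cells in both tissues. Fos, Fosb and Jun stood higher in bone marrow in all 8, each with a 95% interval of the ratio above 1, so for these members the difference was not limited to stem-gated cells. These are 1 library per tissue, and the intervals cover counting error only. For Fos the ratio of bone marrow to spleen was 8.62 (interval 6.31 to 12.02) in stem-gated cells. It was 9.13 (5.10 to 17.1) in erythroid cells and 4.89 (3.23 to 7.67) in myeloid progenitors, and both intervals overlap that of the stem gate. The lowest, 2.65 (1.80 to 4.00), was in B cells, at 16.3 CPM in bone marrow and 6.14 CPM in spleen. For Jun the stem-gated ratio of 2.09 (1.87 to 2.34) lay between 1.80 (1.51 to 2.14) in erythroid cells and 4.21 (3.52 to 5.07) in myeloid progenitors. Mast and basophil cells held the highest Jun level, 354 CPM in bone marrow and 101 CPM in spleen. For Fosb the ratio ran from 1.86 (1.27 to 2.74) in B cells to 58.9 (10.3 to 2353) in myeloid progenitors, where spleen held 1 UMI.

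The other Jun genes and Ppp1r15a differed from class to class. Junb had an interval above 1 in 1 of 8 classes, the stem-gated cells, at 1.80 (1.52 to 2.13). It was 1.08 (0.95 to 1.23) in myeloid progenitors and 0.47 (0.39 to 0.57) in B cells, where spleen was higher, at 59.5 against 28.1 CPM. Jund had an interval above 1 in 4 classes: 1.51 in stem-gated cells, 1.76 in myeloid progenitors, 1.22 in erythroid cells and 2.42 in mast and basophil cells. In B cells, which held the highest spleen level of Jund at 309 CPM, the ratio was 0.72 (0.67 to 0.77). Ppp1r15a had an interval above 1 in 4 classes, at 2.34 in stem-gated cells, 2.17 in B cells, 1.51 in erythroid cells and 1.40 in ungated cells. Ier2 had ratios from 0.98 to 1.45 and Egr1 from 0.40 to 2.66, with an interval above 1 in 3 and 0 of the 8. Fosl2 ran from 0.55 to 1.67, also with 0 of 8. Whether the classes differ from one another was not tested.

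**Figure D3:**
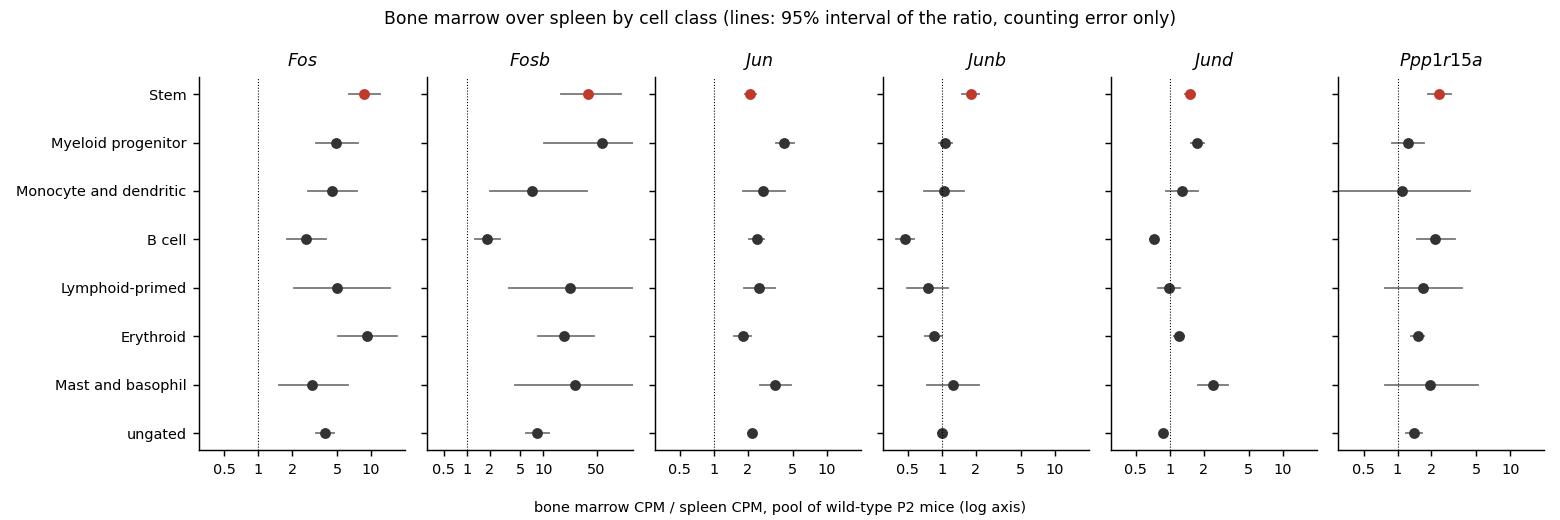
Ratio of bone marrow to spleen CPM for 6 members in 8 classes of the pool, on a log axis, with lines for the 95% interval (counting error only; Fosb lines stop at the panel's edge). Fos, Fosb and Jun lie right of 1 in all 8 classes, while Junb does so with its whole interval in stem-gated cells (red) alone.

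As a background, the share of all genes at least 1.5-fold higher in bone marrow was taken in each class, over genes with at least 50 UMIs in both tissues together. In stem-gated cells 6 of 9 such members passed this fold, where 1.51% of genes did, and that is the contrast that chose them. In myeloid progenitors 4 of 8 members passed against 1.49% of genes, and in ungated cells 3 of 9 against 2.51%. In erythroid cells it was 3 of 7 against 3.71%, though 1 member with the thinned gate, the stricter gate or doublets removed, and in lymphoid-primed cells 1 of 4 against 4.02%. In monocyte and dendritic cells it was 2 of 5 against 7.44%, and in mast and basophil cells 2 of 4 against 7.61%. B cells, with 4 of 8, had the highest background, 17.7%. Free RNA of droplets was looked at through genes of 1 class: Mpo, Vpreb1 and Car1 outside their own class lay between 0.0966% and 4.41% of their level in it. Fos in erythroid cells was at 9.94% of the stem-gated level in bone marrow and 9.37% in spleen, so a part of that low level from free RNA was not tested.

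Pup 1 held enough other cells to look at the classes of 1 animal. In its monocyte and dendritic cells Fos was at 375 CPM in bone marrow (28 cells) and 84.7 CPM in spleen (58 cells). In neutrophils, 35 and 109 cells, Fos was at 110 and 18.4 CPM and Junb at 93.3 and 44.2 CPM. Both genes were higher there than in stem-gated cells of the same pup. Junb, which the pool showed above 1 with its whole interval in the stem gate alone, thus had ratios of 2.11 (1.34 to 3.28) in neutrophils and 2.14 (1.44 to 3.19) in monocyte and dendritic cells of this pup. Outside the gate as a whole, Atf3 was at 18.6 CPM in bone marrow and 1.45 CPM in spleen of pup 1, from 33 and 10 UMIs. In bone marrow, pup 1 thus had the lowest Fos of the 3 sources in stem-gated cells and the highest outside the gate, while in spleen outside the gate pup 2, at 41.7 CPM, was higher than pup 1.

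The pool liver was set beside the pool spleen in the same way. The protocol names chopping for spleen and fetal liver. In stem-gated liver cells Fos was at 29.4 CPM, Jun at 93.5, Junb at 53.0 and Ppp1r15a at 32.4 CPM, and 5 of 8 members were at least 1.5-fold above spleen, where 9.03% of genes were. For Fos the ratio of liver to spleen was 5.13 (interval 3.26 to 8.03), from 40 and 45 UMIs. Jun passed 1.5-fold in all 8 classes that could be compared between liver and spleen. In monocyte and dendritic cells 6 of 7 members did, against 20.1% of genes, and in ungated cells 5 of 10 against 10.5%. It was 3 of 7 against 7.27% in myeloid progenitors, 3 of 8 against 14.1% in B cells and 1 of 6 against 3.51% in erythroid cells. Lymphoid-primed cells had 1 of 4 against 9.38%, and T, NK and innate lymphoid cells 1 of 5 against 18.3%. In stem-gated cells the ratio of bone marrow to liver was 0.98 (0.76 to 1.28) for Junb, 1.09 (0.92 to 1.28) for Jund and 1.01 (0.73 to 1.43) for Ppp1r15a, and 3.30 (1.85 to 6.49) for Fosb, with 1 library each.

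E19 stem-gated cells held the highest level among the 8 groups for 8 of the 10 members, all but Fosb and Jun. The share of all genes highest at E19 was not counted, so this count has no background. The 10 mitotic markers summed to 978 CPM at E19 and to between 1608 and 3006 CPM in the other groups, and their part in these levels was not tested. Fos was at 90.5 CPM, Fosl2 at 37.5, Junb at 90.7, Jund at 160, Atf3 at 4.93, Ier2 at 95.6, Egr1 at 21.0 and Ppp1r15a at 63.3 CPM. Fosb, at 7.92 CPM, lay under the bone marrow of the pool and pup 2, whose 95% intervals did not reach it. Jun, at 185 CPM, lay under pup 2 bone marrow at 198 CPM. Age, day of the experiment and library cannot be told apart here, since E19 is 1 library run apart from the others, and its tissue labels differ.

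More cells held several members at once in the groups where the members' levels were high. Detection follows level, and bone marrow against spleen is the contrast that chose the members, so this order is a description. Cells are not replicates, and the intervals cover counting error only. Each stem-gated cell was thinned to 5000 UMIs, leaving out shallower cells (346 in pool bone marrow, 274 in pool spleen, 1628 at E19). A Fos UMI was seen in 15.4% of pool bone marrow cells and 2.45% of spleen cells, and in 27.5% at E19 (20.8%, 3.67% and 34.6% without thinning). In pup 2 the shares were 10.5% and 3.62% (23.0% and 11.8% without thinning). Erythroid cells, thinned alike, had a Fos UMI in 2.27% of cells in pool bone marrow and 0.343% in pool spleen. In pup 1 a Fos UMI was seen in 1 of 85 bone marrow cells (1.18%) and 8 of 826 spleen cells (0.969%), so a difference was not detectable at this depth (9.41% and 5.81% without thinning). At least 3 members were seen in 26.7% (exact 95% interval 23.6 to 30.1) of pool bone marrow cells and 7.98% (6.21 to 10.1) of spleen cells. The same shares were 18.8% (11.2 to 28.8) and 7.26% (5.59 to 9.25) in pup 1, and 28.1% (25.6 to 30.7) and 11.5% (9.12 to 14.2) in pup 2. At E19 it was 43.2% (41.8 to 44.5). Fos and Fosb were seen in the same cell in 24 pool bone marrow cells, where the product of their shares gives 10.6. In pup 2 bone marrow it was 25 against 7.84 and at E19 86 against 50.9, so in these 3 groups the pair met 1.69 to 3.19 times as often as the product of shares. For Jun and Jund, the ratio was 1.14 in pool bone marrow and 1.10 at E19.

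**Figure D4:**
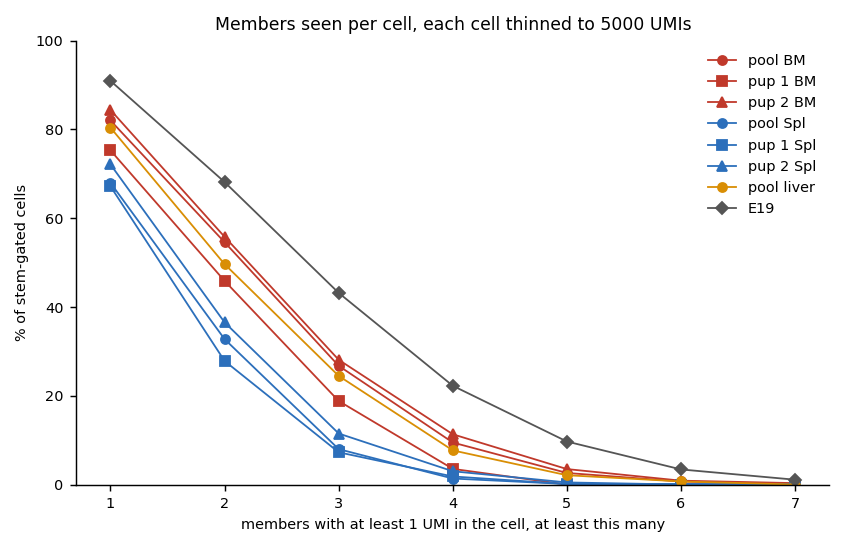
Share of stem-gated cells, each thinned to 5000 UMIs, in which at least 1, 2, 3 and up to 7 members had a UMI. From at least 1 to at least 4 members, spleen groups (blue) lie lowest and bone marrow groups (red) and liver (orange) above them. At 5 members pup 1 bone marrow, with 0 of 85 cells, lies under all 3 spleen groups. E19 (grey) is highest throughout, at 43.2% of cells with at least 3 members. Bone marrow against spleen is the contrast that chose the members.

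Mitotic stem-gated cells had lower shares of all 9 members tested than non-mitotic ones. Cells with at least 4 of 10 mitotic markers were compared with cells with at most 1, in 8 groups paired by source and tissue. All 9 members were called lower by edgeR's quasi-likelihood test with Benjamini-Hochberg adjustment, where 32% of 11604 genes were called lower and 27.4% higher. The 8 groups are not independent, since tissues of a pup or of the pool share animals. The largest log2 difference was that of Fos, at -0.91 ± 0.13 (SE, 8 pairs; edgeR adjusted p = 2.22e-06), and Fos was lower in mitotic cells in 8 of 8 pairs. At E19 it fell from 104 CPM in 4473 non-mitotic cells to 72.0 CPM in 1618 mitotic cells, in pool bone marrow from 79.9 to 31.7 CPM and in pup 2 bone marrow from 53.6 to 15.4 CPM. Junb had a difference of -0.80 ± 0.09 (SE, 8 pairs; edgeR adjusted p = 6.25e-08) and Jund of -0.60 ± 0.05 (SE, 8 pairs; edgeR adjusted p = 1.08e-09), each lower in 8 of 8 pairs. Jun had -0.45 ± 0.09 (SE, 8 pairs; edgeR adjusted p = 0.000258) and was lower in 7 of 8, the exception being pup 2 spleen at 75.9 against 68.6 CPM. The other members had -0.86 (Fosb), -0.66 (Egr1), -0.64 (Ppp1r15a), -0.59 (Fosl2) and -0.35 (Ier2).

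**Figure D5:**
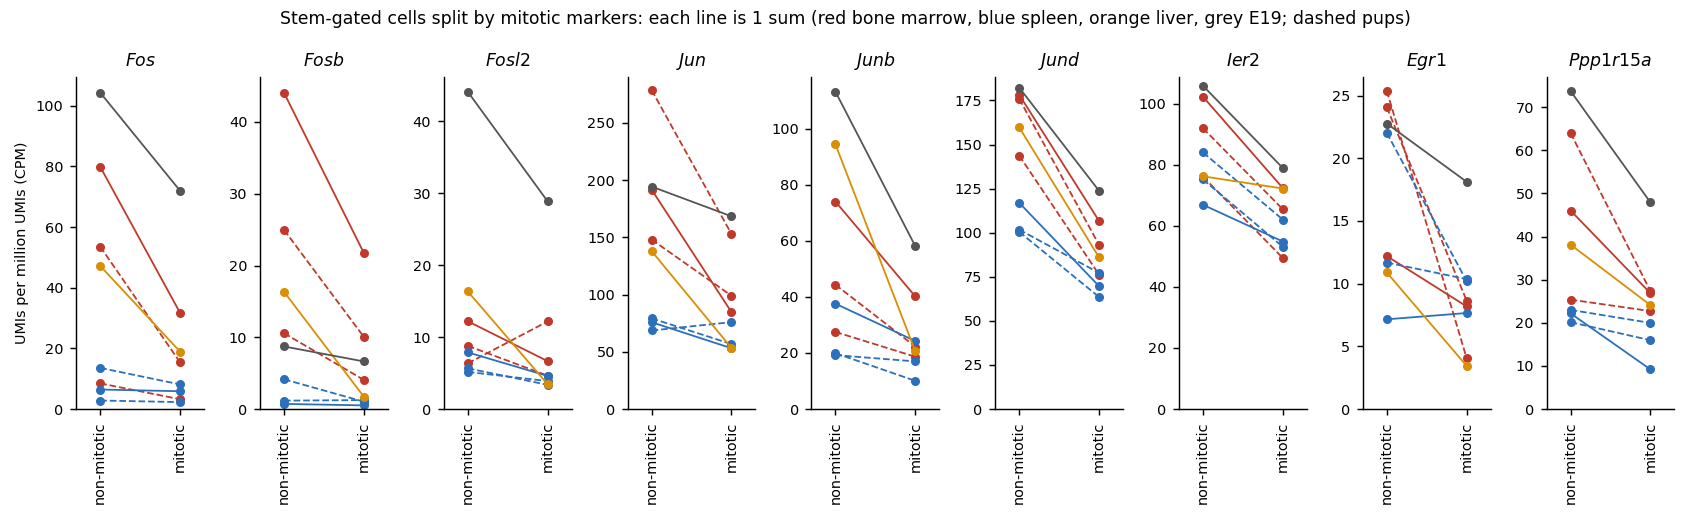
CPM of 9 members in non-mitotic and mitotic stem-gated cells, with 1 line per group (red bone marrow, blue spleen, orange liver, grey E19; dashed lines are the pups). Lines slope down for Fos, Junb, Jund, Ier2 and Ppp1r15a in 8 of 8 groups.

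Mitotic cells held 1.66 to 1.88 times as many UMIs per cell in the 8 pairs, so a share can fall while the number of transcripts does not. Counted as UMIs per cell, Fos was lower in mitotic cells in 4 of 8 pairs and Ier2 in 0 of 8. The median ratio of mitotic to non-mitotic UMIs per cell was 0.91 for Fos, 1.07 for Jund, 1.21 for Jun and 1.32 for Ier2. Without the pairing of groups, 1 of 9 members was called, Jund (adjusted p = 0.0117, edgeR), where 13.8% of genes were called lower, a share near that of the members.

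tdTomato-positive stem-gated cells were few, 28 in pup 1 and 38 in pup 2, and in the fit over 13513 genes 4 of 9 members were called higher in them than in negative cells, where 0.91% of genes were called higher and 2.27% lower. Fos had a log2 difference of 2.64 ± 0.29 (SE, 2 pups; edgeR adjusted p = 2.1e-16), Fosb 2.06 ± 0.47 (SE, edgeR adjusted p = 0.000875), Egr1 1.23 ± 0.35 (SE, edgeR adjusted p = 0.0216) and Ppp1r15a 0.95 ± 0.25 (SE, edgeR adjusted p = 0.00765). These SE and p-values rest on a spread shared over all genes and do not measure how far the 2 pups differ for a member. Bone marrow and spleen cells of a pup were summed together. In pup 1 these were 6 and 22 positive cells against 85 and 826 negative ones, and in pup 2 26 and 12 against 1266 and 638. Within a pup, tube and tdTomato state cannot be told apart. The part of tissue mix was not tested. Of the 102 Fos UMIs in positive cells of pup 2, 83 lay in 2 spleen cells, with 43 and 40. In pup 1, the 28 positive cells held 6 Fos UMIs in 4 cells. With the spleen cells of pup 2 left out of both arms, an alternative added after the data were seen, 0 of 9 members were called by edgeR, where 0.461% of genes were called higher, and 2 had an unadjusted p under 0.05. Fos was then at 0.83 ± 0.40 (SE, adjusted p = 0.457) and Ppp1r15a at 0.85 ± 0.27 (SE, adjusted p = 0.0659). DESeq2 on all cells called 1, Fos, where 23 of 7487 genes were called higher. Without the positive cells of pup 1 or of pup 2, 0 of 10 members were called by edgeR, with 5 and 0 at an unadjusted p under 0.05, in fits that also drop the term for pup. With no term for pup and all 4 sums, 0 of 9 were called by edgeR and 2 had an unadjusted p under 0.05. Xist, seen in every stem-gated cell of pup 1, had a UMI in 5 of the 38 positive stem-gated cells assigned to pup 2 (13.2%) and in 8 of its 1904 negative ones (0.42%). Tube 2 had held the former beside negative cells from pup 1, and the part of free RNA or doublets in their counts was not tested.

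Genes around the members were taken from lists chosen with earlier results known. Of 10 other AP-1 partners, 9 were tested between bone marrow and spleen in stem-gated cells and 0 were called by edgeR or DESeq2, with 1 at an unadjusted p under 0.05. Their median log2 difference was 0.04 against -0.01 over all genes. Of 15 upstream kinases and factors, 0 were called by either tool and 0 had an unadjusted p under 0.05, with a median of 0.02. Of 40 other immediate early and feedback genes 37 were tested and 30 lay above 0, with a median of 0.29. At an unadjusted p under 0.05 there were 19, and 1082 of all 13434 genes. Of the 37, 1 was called by edgeR: Sik1, a salt-inducible kinase gene, with 0.69 ± 0.11 (SE, 3 sources; edgeR adjusted p = 0.0277). DESeq2 called Sik1 and Nfkbiz. Of 10 integrated stress response genes, 0 were called by either tool, 1 had an unadjusted p under 0.05 and the median was -0.01.

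In mitotic against non-mitotic cells, 26 of 36 other immediate early genes were called lower and 1 higher, with a median log2 difference of -0.38 against -0.03 over all genes. Over all genes 32% were called lower and 27.4% higher. Among the 26 were Nr4a2 (-0.71 ± 0.10), Zfp36, whose protein speeds decay of short-lived transcripts (-0.69 ± 0.09), and Dusp1, a phosphatase gene that shuts off the kinases upstream of AP-1 (-0.39 ± 0.11). Of 10 heat shock genes tested, 7 were called higher and 1 lower, with a median of 0.24. Of 8 AP-1 partners, 4 were called lower, Batf2, Atf7, Maff and Mafg.

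Across the 8 stem-gated groups, genes most like the mean of the members included Rab5a, Sik1, Mcl1, Fbxo33, Arl5b and Wdr45b. Likeness was Pearson's r of log2(CPM + 1) over the 8 groups, among 7433 genes with a mean of at least 20 CPM, and these 6 had r from 0.91 to 0.96. The groups share libraries and animals. Mcl1, a survival gene, went from 119 CPM in pup 1 spleen to 177 CPM at E19. Sik1 went from 21.2 CPM in pool spleen to 92.8 CPM at E19. Of the members, which enter that mean themselves, Jund (r = 0.98), Fos (0.97) and Ppp1r15a (0.97) were most like it and Egr1 (0.58) least.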

How the data were processed

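The matrices deposited by the authors hold raw UMI counts per gene and cell, made with Cell Ranger 7.0.0 (pool), 7.1.0 (E19) and 8.0.1 (tubes) per the file headers. For all libraries mm10 and Cell Ranger 7.0.0 stand in the submitters' processing notes. The members and all gene and marker lists were chosen with earlier results of these data known. Cells were filtered and gated as given in the report. Each hashtag's background was its counts in cells with another leading hashtag. A tube cell took a hashtag if it alone passed percentile 99 of background and the runner-up had at most 1 count for every 3 of its own, which left 603 and 1060 cells unassigned. Doublets were kept in the main values, and an alternative removed the highest Scrublet scores (scanpy 1.11.5). Counts were summed over the cells of each group of at least 20 cells and compared with edgeR 4.0.16 (glmQLFit, glmQLFTest, TMM, filterByExpr) with source, unit or pup as a term, since the sums compared within each came from the same animals, and with DESeq2 1.42.0 as an alternative. CPM have exact Poisson 95% intervals. Ratios have exact conditional binomial and shares exact Clopper-Pearson 95% intervals (scipy 1.17.1), which cover counting error only. P-values set a difference against the spread between 3 sources (the pool and 2 pups), 8 paired groups or 2 pups. edgeR moderates that spread by sharing it over all genes. Where the sources or pups of 1 gene disagree, its p-value can therefore be too small. Each SE is the log2 difference over the square root of edgeR's F and is moderated alike. The script was tested on simulated data: in the comparison outside the stem gate (11721 genes), 58 of 100 planted 2-fold and 98 of 100 planted 4-fold changes were recovered. The genes named are the members, 6 of the 8 genes most like them (the others are not reported here), and genes of the lists that passed the test, of which the text gives examples. Nfkbiz is named for its DESeq2 call, after its value was seen. Alternatives were another tool, no filter, no block, other gates, doublets removed, another hashtag rule and each source left out.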

Additional observations from a re-analysis of the deposited data

How the results depend on the processing

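Between bone marrow and spleen in stem-gated cells, 9 genes were called. DESeq2 called 8, the stricter gate 9 and removal of doublets 6, while there were 190 without a filter on low counts, 2 with a gate on thinned cells and 2 with the other hashtag rule. Leaving out a source gave 30 to 1460. The sources pair the tissues, since each pair came from the same animals. Without that pairing as a block, 0 genes were called (98 at an unadjusted p under 0.05), and 0 outside the stem gate (49 at an unadjusted p under 0.05). All 9 members tested kept log2 differences above 0 in the stem gate under these 10 alternatives, a direction that the choice of members favours. The lowest values of Ier2 and Egr1 were 0.011 and 0.0067, near no difference. Outside the gate, 1 gene was called, against 60 with DESeq2, 359 without a filter, 0 with the thinned gate (795 at an unadjusted p under 0.05), 0 with the stricter gate (691), 8 without doublets, 22 with the other hashtag rule and 50 in gated cells alone. Leaving out a source gave 15 to 658. Without a filter, 5 of 10 members were called higher there, where 148 of 23727 genes were: Fos, Fosb, Fosl2, Jun and Junb. In mitotic cells 6897 genes were called with the block and 3169 without it. The tdTomato comparison called 430 genes, 83 with DESeq2, 67 without the block by pup, 273 with the stricter gate, 240 without spleen cells of pup 2, and 8 to 174 when 1 arm of a pup was left out, which also drops the block and assumes that a lone group varies like the others. Without the positive cells of pup 2, the log2 difference of Egr1 was -0.42 and that of Ppp1r15a -0.14, and over the left-out arms Fos lay between 0.21 and 4.85, Fosb between 0.26 and 4.17, Egr1 between -0.42 and 1.79 and Ppp1r15a between -0.14 and 1.64. In erythroid cells of the pool, 3 members passed 1.5-fold, against 1 with the thinned gate, 1 with the stricter gate and 1 without doublets. In ungated cells it was 3, against 5 with the stricter gate. The cause of these shifts was not tested. Stem-gated cells at 6 of 12 markers, the edge of the gate, were 37.0% of pool bone marrow and 36.5% of pool spleen cells, against 1.61% and 1.64% in the deeper tubes.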

Other observations

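Outside the stem gate, E19 held members at levels that belong in no comparison above. Its 32 monocyte and dendritic cells had Fos at 592 CPM (Poisson 95% interval 514 to 677) and Jun at 442 CPM (376 to 517). Its 76 lymphoid-primed cells had Fos at 113 CPM and Jun at 107 CPM, and its 147 B cells had Fos at 27.6 CPM and Jun at 191 CPM. In 849 erythroid cells Fos was at 5.36 CPM and Jun at 52.6 CPM. These are sums of 1 library with no replicate.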
